A study of Mus musculus with 2 samples.

Results

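The genes described here belong to the neurotrophin and GDNF system, looked at in osteoblast cultures. These are the ligand genes Gdnf, Bdnf and Ntf3, the GDNF-family receptor genes Gfra1, Gfra2 and Ret, and neurotrophin receptor genes Ntrk2, Ntrk3 and Ngfr. They were chosen by family membership from the probe sets that the platform annotation assigns to a single symbol, with the ratios between these arrays already known, so their differences are given as a description and support nothing further. Of the 9 genes, 8 had a probe set, 32 probe sets in all out of 45037 on the array without controls and 8 of 18193 named genes. Ntf3, the gene of neurotrophin-3, was assigned no probe set in the annotation and has no value here.

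Primary mouse osteoblasts were kept in alpha-MEM with fetal calf serum at 10% and differentiated for 10 days with ascorbic acid at 50 µg/ml and beta-glycerophosphate at 10 mM. They were then deprived of serum overnight and exposed for 6 hours to the conditioned medium of a human prostate cancer line. The study compared factors from MDA-PCa2b cells with factors from PC-3 cells, and each medium was measured on 1 Affymetrix array of total RNA. Both lines were derived from bone metastases; lesions that form bone are typical of MDA-PCa2b, and lesions that destroy it of PC-3. Strain, age and number of animals are not given in the sources used here, and osteoblasts without tumour-cell medium were not analysed here. There were no replicates, so no error between cultures and no test could be given, and "higher" or "lower" always compares PC-3 medium with MDA-PCa2b medium. In whole cultures, fewer cells of a type and less RNA per cell cannot be told apart.

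GDNF acts through a receptor made of a lipid-anchored co-receptor, GFRα1, and the tyrosine kinase RET, and it can also signal through the adhesion molecule NCAM. GFRα2 is the preferred co-receptor of neurturin and GFRα3 that of artemin. BDNF and neurotrophin-3 signal through the tyrosine kinases TrkB and TrkC, encoded by Ntrk2 and Ntrk3, while the p75 receptor, encoded by Ngfr, binds all neurotrophins and their unprocessed precursors. Bone is innervated, and bone-forming cells are known as a source of factors that guide and maintain its nerve fibres.

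In PC-3 medium the osteoblast cultures gave higher signals for Gfra1 and Gdnf, which encode a co-receptor and its ligand. Gfra1 was 8.33-fold higher and Gdnf 2.38-fold higher, while the other 5 genes with a ratio did not reach 2-fold, Ntrk3 as a bound. The transcript of the kinase Ret stayed low on both arrays. Artn, the gene of another GDNF-family ligand, was at least 4.13-fold higher, although it belongs to a wider list and not to the 9 genes.

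A signal here is the authors' probe set brightness on a linear scale. Signals under the 50th percentile of their array (56.7 for MDA-PCa2b and 57.7 for PC-3 medium) were raised to this floor before log2 was taken, and a ratio with 1 array at the floor is a bound. The floor matters because most of the 32 probe sets were dim: 9 exceeded it on both arrays, 3 exceeded it with PC-3 but not MDA-PCa2b medium, 1 the reverse, and 19 on neither array. Among the 21390 probe sets of the whole array below the floor on both, 40.6% differed at least 2-fold in their signals without a floor, so ratios below the floor were not read. Where several probe sets existed, the one with the highest mean signal stood for the gene. In each pair of signals below, MDA-PCa2b medium comes first and PC-3 medium second.

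**Figure D1:**
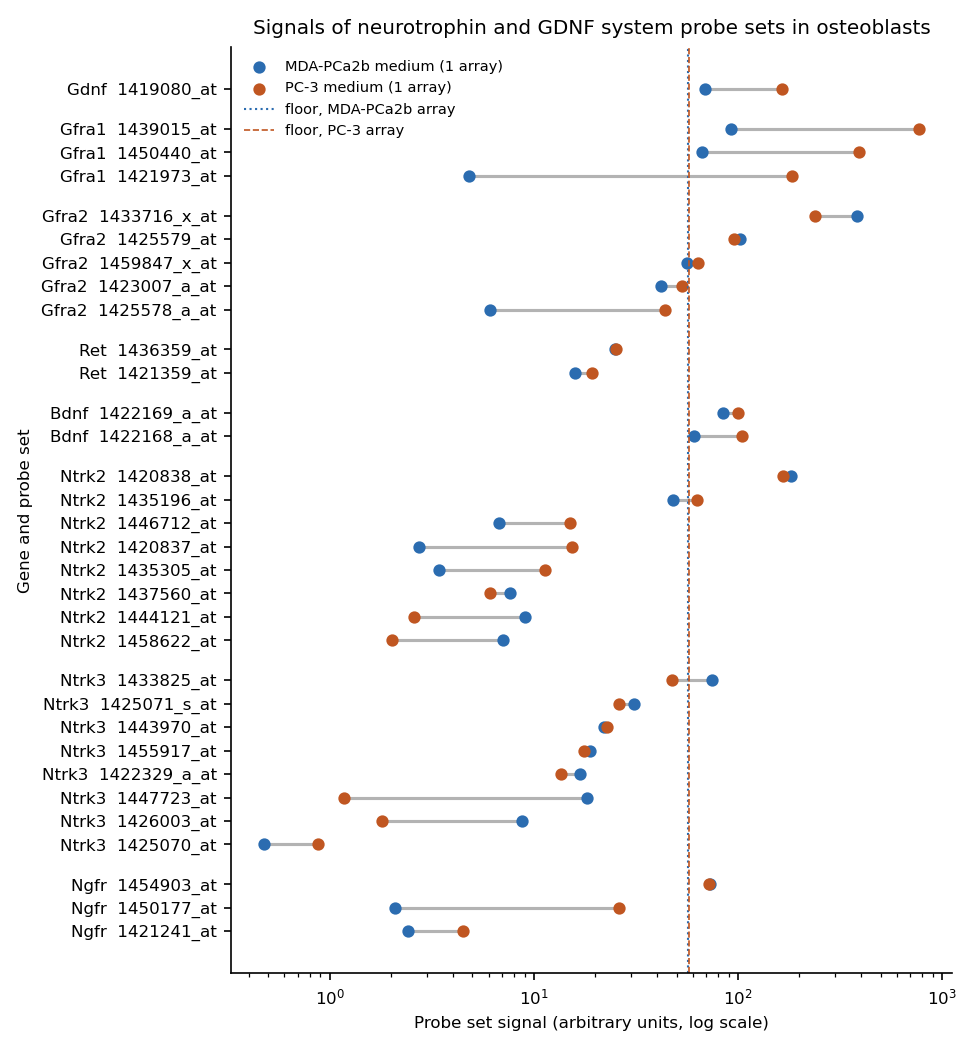
Signal of each of the 32 probe sets (horizontal, arbitrary units, log scale) on the MDA-PCa2b medium array and the PC-3 medium array, joined by a line, with the 2 floors as vertical lines. All 3 Gfra1 probe sets and the Gdnf probe set lie further right with PC-3 medium, and 19 probe sets lie left of both floors.

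Gdnf encodes a secreted survival factor of sensory, motor and enteric neurons. Its 1 probe set (1419080_at) read 69.0 in MDA-PCa2b and 164 in PC-3 medium, a log2 ratio of 1.25. The lower of these signals stood at percentile 53.1 of its array, close to the floor, and the higher at percentile 66.2. No second probe set was assigned to Gdnf, so its ratio has no check within the array.

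Gfra1 had 3 probe sets, and each of them was at least 2-fold higher. The brightest, 1439015_at, gave 92.8 in MDA-PCa2b and 773 in PC-3 medium, a log2 ratio of 3.06, which corresponds to percentiles 57.6 and 87.3 of the arrays. The second, 1450440_at, gave 66.4 and 390 (log2 ratio 2.56, 5.88-fold). The dimmest, 1421973_at, gave 4.82 and 184, which is at least 3.25-fold higher, since the lower value lies below the floor. In MDA-PCa2b medium the 3 signals stood at or below percentile 57.6 of the array, and in PC-3 medium at or above percentile 67.9. The 2 dimmer ones carry the same source sequence in the annotation, so the 3 probe sets rest on 2 source sequences.

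Of the 13 probe sets with a ratio, 4 were at least 2-fold higher, the 3 of Gfra1 and the 1 of Gdnf, and 0 were at least 2-fold lower. Across all named probe sets with a ratio, 3.68% differed at least 2-fold. At the level of genes, 2 of 7 with a ratio were at least 2-fold higher and 0 lower, where 3.97% of all 11335 genes with a ratio differed at least 2-fold, 2.12% being higher and 1.85% lower. Since the genes were put together with these ratios known, nothing is read from the difference between the shares. The median log2 ratio of the 7 genes was -0.03, beside -0.04 over all genes. Of the 32 probe sets here, 9 were above the floor on both arrays. Among all named probe sets of this kind, log2 ratios within 1 gene scattered around their mean with an SD of 0.24 over 4924 genes. In the lowest tertile of signal the SD was 0.29. This is scatter within the pair of arrays and does not hold the spread between cultures.

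**Figure D2:**
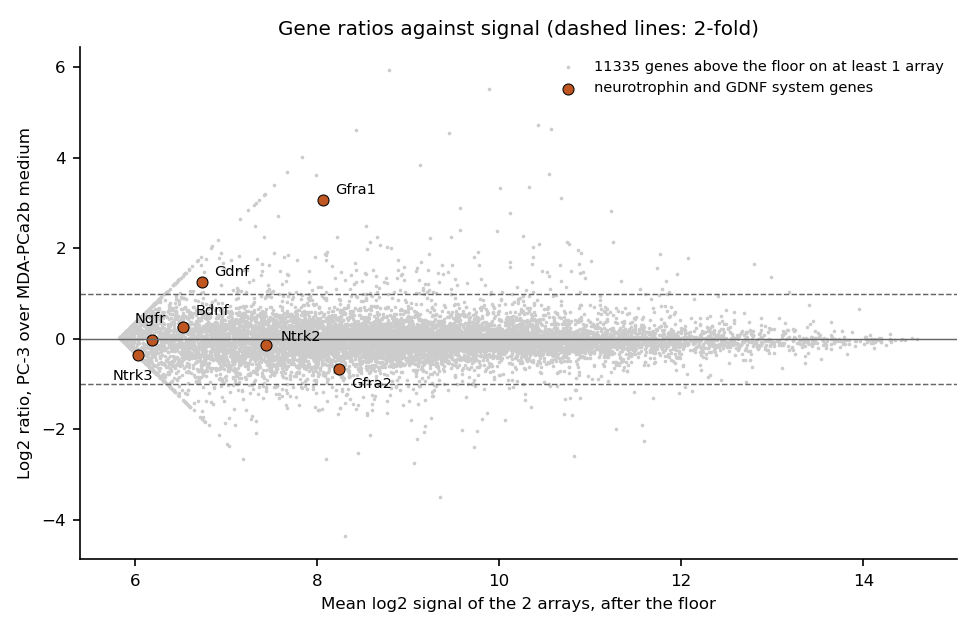
Log2 ratio of PC-3 over MDA-PCa2b medium (vertical) against the mean log2 signal of the 2 arrays after the floor (horizontal) for 11335 genes in grey, with the 7 neurotrophin and GDNF system genes that had a ratio in orange. Gfra1 (3.06) and Gdnf (1.25) lie above the upper dashed 2-fold line and the other 5 between the dashed lines; the straight edges on the left come from the floor.

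The reference start sites of the genes with the higher signals are shown because both transcripts differed in the same direction. Sequences are from RefSeq, build GRCm38.p6, and run 5′ to 3′ on the gene's own strand from 250 bases before a start site to 50 bases from it on. Gfra1 had 1 window, chr19:58455349-58455648 on the minus strand. Gdnf had 2 on the plus strand, chr15:7809798-7810097 and, for a later start, chr15:7813477-7813776. Each window spans the upstream region and the first transcribed bases of its start. Capitals mark a match to the kappa-B motif, the element bound by NF-kB.
Gfra1 window: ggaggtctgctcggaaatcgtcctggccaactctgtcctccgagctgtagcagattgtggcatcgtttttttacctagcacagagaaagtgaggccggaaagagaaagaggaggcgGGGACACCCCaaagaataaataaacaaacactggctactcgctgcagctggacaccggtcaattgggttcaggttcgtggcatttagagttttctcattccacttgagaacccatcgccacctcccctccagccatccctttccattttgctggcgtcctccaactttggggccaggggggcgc
Gdnf first window: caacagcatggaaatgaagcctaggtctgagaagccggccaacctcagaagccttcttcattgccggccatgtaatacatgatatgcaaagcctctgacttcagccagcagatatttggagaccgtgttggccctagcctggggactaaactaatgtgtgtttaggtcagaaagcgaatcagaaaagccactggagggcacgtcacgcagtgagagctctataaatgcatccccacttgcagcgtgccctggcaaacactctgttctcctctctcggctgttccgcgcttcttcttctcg
Gdnf second window: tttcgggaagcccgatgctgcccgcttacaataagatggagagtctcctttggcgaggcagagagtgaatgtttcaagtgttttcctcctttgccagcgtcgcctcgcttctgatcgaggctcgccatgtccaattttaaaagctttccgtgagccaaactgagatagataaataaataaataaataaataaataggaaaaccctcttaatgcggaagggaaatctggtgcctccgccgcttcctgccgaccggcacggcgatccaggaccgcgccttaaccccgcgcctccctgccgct

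The windows were searched on both strands for the kappa-B motif, the cAMP element TGACGTCA, the AP-1 element TGANTCA and the STAT element TTCNNNGAA. The Gfra1 window held 1 kappa-B match, from 134 to 125 bases before the start, and none of the other motifs. A kappa-B match occurred in 4.51% of all 32851 windows in the table. Neither Gdnf window held a match to any of the 4 motifs. Bdnf had 7 windows, of which 1 held a kappa-B match, 1 an AP-1 match and 1 a STAT match, motifs present in 4.51%, 7.81% and 8.30% of all windows. The windows of Ntf3, Ntrk2 and Ngfr held none of the 4, and Gfra2, Ret and Ntrk3 had no window in the table. The cAMP element was in 0 of the 14 windows of these genes and in 1.79% of all windows. A match describes the reference letters and shows no bound factor.

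Gfra2 encodes the co-receptor that prefers neurturin, and its probe sets did not follow those of Gfra1. The brightest, 1433716_x_at, gave 383 in MDA-PCa2b and 239 in PC-3 medium (log2 ratio -0.68, 1.60-fold lower), but its suffix marks probes that can match other transcripts. The next, 1425579_at, gave 102 and 96.0, a log2 ratio of -0.09. Another, 1459847_x_at, gave 56.5 and 63.5, at least 1.12-fold higher, and the remaining 2 were below the floor on both arrays, with signals of 41.8 and 53.0 and of 6.07 and 43.7. The lower signal therefore rests on the brightest probe set, and the gene's ratio shrank to -0.09 once probe sets of possible multiple matches were left out.

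Ret encodes the tyrosine kinase through which the GFRα co-receptors signal. Its 2 probe sets were below the floor on both arrays, 1436359_at with signals of 25.1 and 25.4 and 1421359_at with 15.8 and 19.2. No ratio is given at the main floor. A floor at the 25th percentile gave a log2 ratio of 0.02 by the brighter probe set. The co-receptor gene with the highest ratio was thus measured beside a kinase gene with no signal above the floor, and a low signal does not show that the transcript is absent.

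Ncam1, the gene of the alternative GDNF receptor, gave 789 and 804 (log2 ratio 0.03), and its other 4 measured probe sets ranged from -0.21 to 0.12. Among the other co-receptors of the family, Gfra4, which serves persephin, gave 199 and 211 (log2 ratio 0.08), while Gfra3 was below the floor with 51.7 and 33.5.

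Bdnf encodes a neurotrophin that supports sensory neurons and synapses. Its 2 probe sets come from the same source sequence and differed in size of ratio. The brighter, 1422169_a_at, gave 84.3 in MDA-PCa2b and 100.4 in PC-3 medium (log2 ratio 0.25). The other, 1422168_a_at, gave 60.8 and 104 (log2 ratio 0.78, 1.72-fold). Both were higher with PC-3 medium, both stood between percentiles 51.0 and 59.3 of their arrays, and neither reached 2-fold.

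Ntrk2, the gene of the BDNF receptor TrkB, had 8 probe sets, of which 6 were below the floor on both arrays. The brightest, 1420838_at, gave 181 and 166 (log2 ratio -0.13), and 1435196_at gave 48.2 and 63.1, at least 1.11-fold higher. The other 6 had signals from 2.02 to 15.5 and no common direction.

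Ntrk3, the gene of the neurotrophin-3 receptor TrkC, also had 8 probe sets, and 7 were below the floor on both arrays. The brightest, 1433825_at, gave 74.3 in MDA-PCa2b and 47.2 in PC-3 medium, at least 1.29-fold lower as a bound. With a floor at the 25th percentile, which both signals exceeded, its log2 ratio was -0.65. Probe sets of genes with several transcript forms, as Ntrk2 and Ntrk3 are known to have, may report different forms, and no file here assigns them to forms.

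Ngfr encodes the p75 neurotrophin receptor, which also marks stromal progenitors and Schwann cells. Its brightest probe set, 1454903_at, gave 73.3 and 72.0 (log2 ratio -0.03). The others, which share a source sequence, were below the floor on both arrays (2.10 and 26.0 for 1450177_at, 2.43 and 4.47 for 1421241_at). None of the 3 neurotrophin receptor genes reached 2-fold by the probe set that stood for it.

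**Figure D3:**
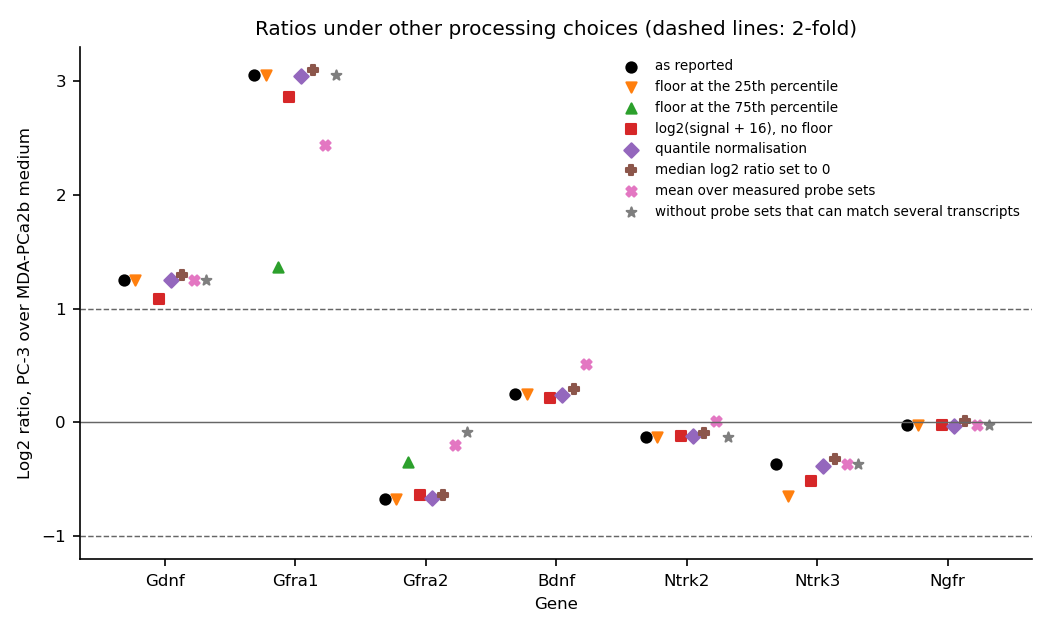
Log2 ratio (vertical) of each gene with a ratio under the reported processing and up to 7 alternatives (horizontal: genes; symbols: settings; dashed lines: 2-fold). Gfra1 stays above 2-fold at every setting, from 1.37 with the floor at the 75th percentile to 3.10, and Gdnf lies from 1.09 to 1.29 but has no value at that highest floor.

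The Gfra1 log2 ratio was 3.06 with the floor at either the 25th or the 50th percentile. Under a 75th-percentile floor the log2 ratio was 1.37, as a bound, and with the mean over its 3 probe sets 2.44. Gdnf was below that floor on both arrays, so the count of genes at least 2-fold higher fell by 1, to 1.

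The genes nearest to Gfra1 by distance between log2 signals over the 2 arrays, a measure of likeness with no more than 2 points, were Cxcl9 (72.5 and 893), Il4ra (137 and 652), Serpina3n (7.25 and 734) and Hp (74.3 and 487). They encode an interferon-induced T-cell chemokine, the interleukin-4 receptor chain, a protease inhibitor and haptoglobin. Their distances to Gfra1, taken after signals were raised to the floor, were 0.41, 0.61, 0.71 and 0.74 log2 units. The first signal of Serpina3n lay below the floor, so its distance rests on the floor and would be larger from the signals printed. The nearest to Gdnf were Fbxl19 (69.0 and 172), Gprin3 (74.8 and 154), the zinc transporter gene Slc39a8 (64.9 and 180) and Mfsd13a (74.5 and 150), at distances of 0.07 to 0.17.

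The wider pathway was described with 5 lists of 82 genes, of which 68 had a probe set and 51 a ratio. Of these 51 genes, 3 were at least 2-fold higher, 2 at least 2-fold lower and 46 did not reach 2-fold. The median log2 ratio was 0.03, beside -0.04 over all genes. The 5 of 51 genes past 2-fold stand beside 450 of 11335 over all genes (3.97%). This share, 2.12% higher and 1.85% lower, also stands beside each list's counts below. With so few genes per list, nothing is read from those counts. Among the 46, the ratios of Frs3, Sh2b2 and Tac1 are bounds, so these genes may differ more than 2-fold. All 3 of the higher genes and 1 of the lower lost their 2-fold difference with a floor at the 75th percentile, and Ptprz1 kept it.

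Among other neurotrophic ligand genes, Artn was the single one past 2-fold of 6 with a ratio. Artn encodes artemin, a GDNF-family ligand known for its action on pain-sensing neurons. It gave 22.7 in MDA-PCa2b medium, below the floor, and 234 in PC-3 medium, at least 4.13-fold higher. Its 1 probe set is of a kind that can match several transcripts of a gene. Nrtn, the neurturin gene, gave 104 and 83.0 (log2 ratio -0.33), and Pspn, the persephin gene, stayed below the floor with 19.1 and 30.8. The 4 GDNF-family ligand genes thus divided into Gdnf and Artn with higher signals, Nrtn with a lower one within 2-fold, and Pspn below the floor. The heparin-binding growth factor genes Ptn (6256 and 5895) and Mdk (4047 and 4379) were bright and within 2-fold by their brightest probe sets; another Ptn probe set gave a log2 ratio of -1.22.

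Of 8 other receptor and co-receptor genes with a ratio, 1 was at least 2-fold lower and 0 higher. This was Ptprz1, the gene of a receptor phosphatase that binds pleiotrophin and midkine, with 1184 and 283 (4.19-fold lower) and a log2 ratio of -2.25 by its second probe set. Its ligand genes Ptn and Mdk are those named above. Sort1, the gene of sortilin, which binds proneurotrophins together with p75, gave 353 and 269 (log2 ratio -0.39). Its other 2 measured probe sets gave -0.20 and 0.13, so they did not share a direction. The median of the 8 genes was -0.18.

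Of 20 genes for adaptors and enzymes of Trk, Ret and p75 signalling with a ratio, 0 differed at least 2-fold. This stands beside 3.97% of all genes, and with so few genes nothing is read from the count. The median log2 ratio was 0.05. The largest ratios were those of Sh2b2, an adaptor gene, with 52.1 and 108 (at least 1.90-fold higher), and of the adaptor gene Frs3 with 54.0 and 82.2 (at least 1.45-fold). Both were below the floor with MDA-PCa2b medium, and with a floor at the 25th percentile Sh2b2 was past 2-fold (log2 ratio 1.045).

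Of 7 genes for proneurotrophin processing with a ratio, Mmp3 alone was past 2-fold. This matrix metalloproteinase gene, whose product can cut proneurotrophins among many other proteins, gave 48.7 and 525, at least 9.25-fold higher. The convertase genes with a ratio were within 2-fold and had no common direction. Their log2 ratios were 0.21 for Furin, 0.59 for Pcsk5, -0.67 for Pcsk6 and -0.01 for Pcsk7, while Pcsk1 was below the floor on both arrays. The list's median was 0.21.

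Among 10 other genes for secreted factors that act on nerves, Ntn1 was higher and Sema3a lower. Ntn1 encodes netrin-1, an axon guidance factor, and gave 145 in MDA-PCa2b and 521 in PC-3 medium (3.59-fold higher). Sema3a, whose product repels axons, gave 416 and 199 (2.09-fold lower), with -1.03 by its second probe set. Tac1, the gene of substance P, gave 6.90 and 89.5, at least 1.58-fold higher as a bound.

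**Figure D4:**
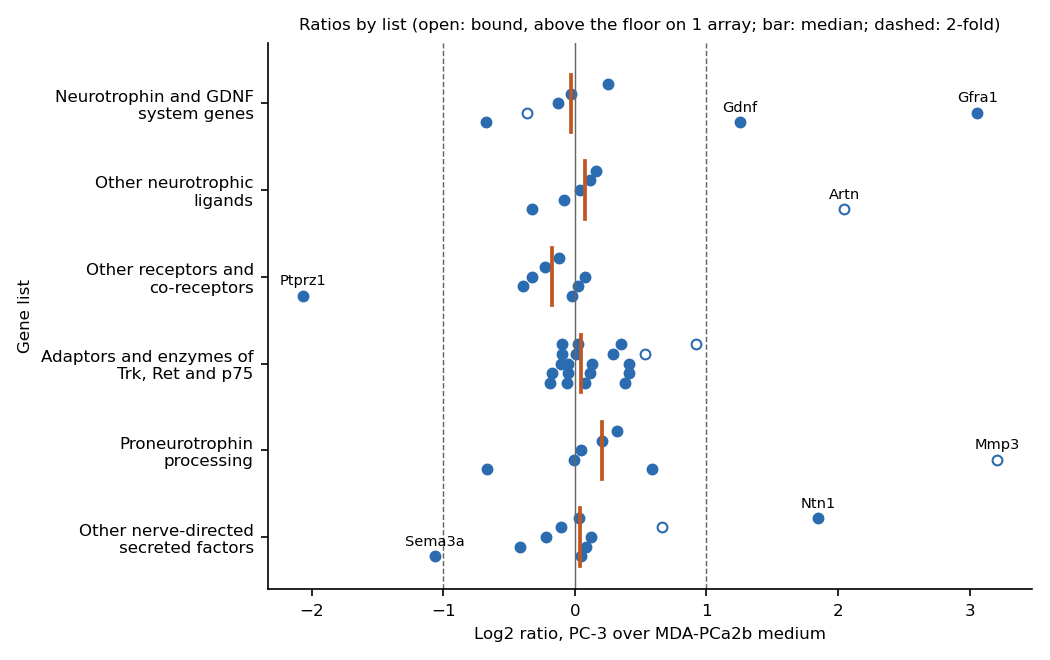
Log2 ratio of PC-3 over MDA-PCa2b medium (horizontal) for the genes with a ratio in the neurotrophin and GDNF system and in 5 wider lists (vertical), filled for genes above the floor on both arrays and open for bounds, with the median of each list as a bar. Named points are past 2-fold: Gfra1, Gdnf, Artn, Mmp3 and Ntn1 to the right, Ptprz1 and Sema3a to the left.

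The labelled cell type was compared with its markers. Each of the 7 osteoblast markers that had a probe set exceeded the floor on both arrays, among them Col1a1 with 20109 and 20052, and their summed signal was 70717 in MDA-PCa2b and 65977 in PC-3 medium. Dmp1, a matrix gene of late osteoblasts and osteocytes, was 4.14-fold lower. The log2 ratios of the 7 markers were all negative, from -2.05 to -0.004 with a median of -0.115, and Dmp1 alone was past 2-fold. Of all 18193 named genes, 11335 were above the floor on at least 1 array, and the marker counts stand beside this share. Neuron markers, which could accompany neurotrophic genes, were above the floor on at least 1 array for 3 of 13 genes, with summed signals of 518 and 418. These were Tubb3, Rbfox3 and Stmn2, none of which reached 2-fold, Tubb3 and Rbfox3 as bounds. Of 9 Schwann cell and glial markers 5 were above the floor, with summed signals of 5149 and 5437; Erbb3, Foxd3, Gfap and Mag were below it on both arrays, and Sox10 gave 48.1 and 67.3. Pmp22 made up most of the glial sum with 3295 and 3999, while S100b gave 396 and 233 (log2 ratio -0.77, and -0.83 by its second probe set) and Cnp a log2 ratio of -0.42 (-0.42 and 0.36 by its other probe sets). The 7 endothelial markers were all below the floor on both arrays. All 8 macrophage markers were above it, with summed signals of 14898 and 15243 and a median log2 ratio of 0.14, and none was past 2-fold. Fibroblast and pericyte markers had a median log2 ratio of 0.12 over 7 genes, none past 2-fold by its brightest probe set (Des as a bound), with summed signals of 37629 and 40462. Among them Pdgfra (0.87), Thy1 (0.55) and Pdgfrb (0.51) had positive log2 ratios and Cspg4 (-0.53) and Acta2 (-0.35) negative ones, and other probe sets of Pdgfra and Dcn gave up to 1.15 and 1.10, past 2-fold higher. The part of these cell types in the signals of Gfra1 and Gdnf was not tested.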

How the data were processed

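Total RNA of 2 osteoblast cultures was measured on 1 array each, from 5 µg of RNA labelled with biotin, and groups were taken from the source description. The deposited values are probe set signals, an intensity on a linear scale for which the submitters' processing notes name GCOS 1.4 and MAS5, with which the authors made them; scaling target and detection calls are not given in the sources used here. The mean without the lowest and highest 2% was 300.002 on both arrays, so each had been scaled globally, which fixes this mean and leaves ratios relative to it. Of 45101 probe sets 64 were controls, and 0 sample columns were left out. Of the probe sets 34958 had 1 gene in the platform annotation, 932 several and 9211 were not listed; 34741 non-control probe sets with 1 gene were matched by Entrez identifier to GRCm38.p6 names, with 0 symbols updated.

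Signals were floored, converted to log2 and subtracted (PC-3 minus MDA-PCa2b) in Python 3.11.15 with pandas 2.3.3. Scripts were tested on simulated data. Changes there were placed only in genes whose brightest probe set exceeded the 75th percentile of signal, so dim genes such as Gdnf were not covered. The number of arrays limits the precision, and no test between media was possible. The genes and lists were chosen with earlier results of these data known. All probe sets of the 9 genes were named, and, in each other list, the largest ratios past 2-fold, at most 4, or the 2 largest where none was. Genes named for their role in the family (Ncam1, Gfra3, Gfra4, Nrtn, Pspn, Ptn, Mdk, Sort1, Furin, Pcsk1, Pcsk5, Pcsk6, Pcsk7, Tac1) and marker genes were added after their values were seen. A comparison of the proteins was not made. Other settings tried were the 25th and the 75th percentile as floor, no floor with log2(signal + 16), quantile normalisation, centring, probe set choices, and thresholds of 1.5-fold and 3-fold.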

Additional observations from a re-analysis of the deposited data

How the results depend on the processing

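Gfra1 was at least 2-fold higher under 7 of 7 alternatives, with log2 ratios from 1.37 to 3.10, and Gdnf under 6 of 6 that gave a value, from 1.09 to 1.29. The count of these genes at least 2-fold higher was 1 under a 75th-percentile floor and 1 at a threshold of 3-fold, against 2, and the count lower was 1 at a threshold of 1.5-fold (Gfra2), against 0. Bdnf stayed above 0 in 5 of 5 alternatives (0.21 to 0.52), while Ngfr and Ntrk2, both close to 0, changed sign in 1 of 6 each. In the wider lists the count higher was 6 under a 25th-percentile floor, 0 under a 75th-percentile floor and 6 at 1.5-fold, against 3. The count lower was 3 under a 25th-percentile floor, 1 under a 75th-percentile floor, 3 at 1.5-fold and 1 at 3-fold, against 2. The share of all genes at least 2-fold different was 8.15% under a 25th-percentile floor and 2.84% under a 75th-percentile floor, against 3.97%. At thresholds of 1.5-fold and 3-fold the share past the threshold was 12.2% and 1.25%. Higher floors leave fewer genes with a measured difference, and a threshold changes a count by construction. No paired analysis was possible because the result comes from no test, with 1 array per medium. Dim signals are a further limit: 19 of 32 probe sets were below the floor on both arrays.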
